A study of Mus musculus with 8 samples.

Results

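The presynaptic active zone genes described here are Rims1, Rims2, Rims3, Rimbp2, Bsn, Pclo, Erc1, Erc2, Unc13a and Unc13b, 10 of the 54532 genes listed in a cortical RNA-seq experiment on 8 mice. Their counts were found by gene name, and each name matched 1 gene. The set was chosen on measured values of these same mice, because Rimbp2 had been seen lower in the mutant genotype, so the differences between genotypes below are a description of the members and carry no test. The 8 mice were 4 PS19 mice and 4 Adrb1+/m;PS19 mice, called mutant mice below. All 8 mice were 8 mo old, labelled as strain C57BL/6, with both lines bred to C57BL/6J by the study's methods, and carried the PS19 transgene, human tau bearing P301S under the prion protein promoter of the mouse. The mutant mice also carried 1 knock-in copy of Adrb1-A187V, a missense allele of the β1-adrenergic receptor made by CRISPR/Cas9 as the mouse counterpart of a human short sleep mutation. The mice were male by the study's general statement on animals, and each gave 1 library from cortex. Mouse numbers below only name the mice and pair nothing.

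The active zone is the patch of presynaptic membrane where synaptic vesicles dock, are primed and fuse. RIM proteins bind the vesicle GTPase Rab3 and the priming factor Munc13, and RIM-binding proteins tie RIMs to voltage-gated calcium channels, which places the channels close to docked vesicles. Bassoon and piccolo are very large scaffolds that span the cytomatrix of the nerve terminal, and the ELKS proteins bind RIMs and other scaffold proteins. In the cortex these proteins serve excitatory and inhibitory terminals alike. The mRNA for the proteins of a terminal lies mainly in the cell body of the neuron that sends the axon. The product of Erc1 is widespread, so its mRNA need not be neuronal alone. In bulk tissue, fewer neurons of a type and less mRNA per neuron cannot be told apart.

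The promoters of 4 members are printed because they carry the contrast described below in how the genes varied from mouse to mouse: Rimbp2, Unc13a and Bsn went up and down together, and Rims3 did not follow them. Each is the 250 bases before the RefSeq start in GRCm38.p6, read 5′ to 3′ on the strand of the gene, with capitals marking the GC box GGGCGG on either strand.
Rimbp2: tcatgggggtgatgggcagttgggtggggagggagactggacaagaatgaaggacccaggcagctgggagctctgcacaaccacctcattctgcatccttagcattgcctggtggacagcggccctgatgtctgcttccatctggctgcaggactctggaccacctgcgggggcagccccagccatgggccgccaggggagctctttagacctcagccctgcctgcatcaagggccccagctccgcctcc
Unc13a: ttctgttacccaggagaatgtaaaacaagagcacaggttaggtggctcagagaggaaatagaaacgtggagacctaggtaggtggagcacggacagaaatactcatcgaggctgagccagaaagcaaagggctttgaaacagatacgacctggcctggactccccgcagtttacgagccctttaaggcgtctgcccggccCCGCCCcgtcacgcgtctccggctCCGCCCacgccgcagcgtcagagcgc
Bsn: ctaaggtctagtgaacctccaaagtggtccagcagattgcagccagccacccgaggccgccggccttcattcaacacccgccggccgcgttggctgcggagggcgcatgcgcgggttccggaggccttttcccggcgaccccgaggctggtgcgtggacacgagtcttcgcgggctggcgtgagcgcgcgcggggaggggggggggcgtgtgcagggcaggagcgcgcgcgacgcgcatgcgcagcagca
Rims3: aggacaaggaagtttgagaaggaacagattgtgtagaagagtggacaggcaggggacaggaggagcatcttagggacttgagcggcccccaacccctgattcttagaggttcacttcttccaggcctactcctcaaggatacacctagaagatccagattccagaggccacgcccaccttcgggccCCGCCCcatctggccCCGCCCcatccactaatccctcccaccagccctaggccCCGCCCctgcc

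The Rimbp2 sequence lies at chr5:128953487-128953736 on the minus strand, has 63.6% G and C, 4 CpG dinucleotides and no GC box. The Unc13a sequence, at chr8:71671758-71672007 on the minus strand, has 58.0% G and C, 18 CpG and 2 GC boxes. The Bsn sequence, at chr9:108190384-108190633 on the minus strand, has 71.6% G and C and 32 CpG, with no GC box. Among these 3 genes only Unc13a held a GC box in its window. Rims3, at chr4:120854549-120854798 on the plus strand, held 3 GC boxes with 59.6% G and C and 6 CpG. Of the 10 members 9 had an entry in the RefSeq table, and Rims2 had none. All 9 promoters were above the median G and C content of all promoters, 52.4%, and the highest was Erc1 with 76.0%. A GC box, a motif that Sp-family factors bind, was found in 6 of the 9, where 32.7% of all 32851 promoters hold one. The cAMP response element TGACGTCA was in none of the 9 and in 1.55% of all promoters. Its half-site TGACG, which the full element contains, was in Erc1 and Unc13a and in 17.8% of all. TATAAA was in none of the 9 and in 12.4% of all, CCAAT was in Erc2 and Unc13b and in 33.8% of all, and the E-box CACGTG was in Unc13b and in 6.02% of all. All motifs were searched on both strands, and a match is only a description of the letters.

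The libraries held between 14653222 and 21223754 counts, and normalization factors lay between 0.990 and 1.01. Chi-square values between replicates of a genotype were 4.82 to 10.1 per degree of freedom, above sampling noise, so none was a copy of another. Neuronal markers of the cortex were high throughout, with a summed level of 4929 to 5768 CPM (normalised counts scaled to the library total) for 10 excitatory neuron markers. Markers of other tissue moved with genotype or between mice. All 8 markers of basal forebrain cholinergic neurons had an unadjusted p under 0.05 in the edgeR fit and were higher in mutant mice. Their sums were 18.2 to 36.7 CPM in PS19 and 38.4 to 54.8 CPM in mutant mice. Over all genes tested 2.80% passed that threshold, and no gene passed after adjustment. These 8 markers had low mean levels, 1.85 to 10.8 CPM, and the marker lists were chosen with earlier results of these data known. Of the 10 excitatory markers 3 passed the unadjusted threshold and were lower. Of the 8 cortical interneuron markers 2 passed it higher and 1 lower. All 10 striatum markers had a higher fitted level in mutant mice (median 0.34 on the log2 scale), and 1 of them passed the threshold. The sum of 4 choroid plexus markers ran from 24.4 to 366 CPM in PS19 and from 26.5 to 579 CPM in mutant mice. No marker of any list was at 0 in all mice. Of the cerebellum markers, however, Gabra6 (mean 0.04 CPM) and Pcp2 (mean 0.18 CPM) were near 0 and did not pass the filter on low counts. The others in that list, Cbln1 and Calb1, had means of 10.3 and 135 CPM.

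All 10 members passed the filter on low counts, which kept 17195 genes, and single-mouse counts ran from 640 for Erc1 to 14142 for Bsn. Divided by the length of the gene in the deposited table, which puts genes of different length on one scale, the members fell into 3 tiers. Bsn (42.3 ± 3.72 CPM per kb, SD over 8 mice), Rims1 (38.5 ± 1.51), Unc13a (37.6 ± 2.31) and Rims3 (37.5 ± 3.22) stood at the top. Their ranges overlapped from neighbour to neighbour. Bsn was above Rims1 in 7 of 8 mice, Rims1 above Unc13a in 6 and Unc13a above Rims3 in 3. Below a gap of 1.95 times came Rimbp2 (19.2 ± 1.34), Erc2 (17.5 ± 1.63), Pclo (16.3 ± 0.895) and Rims2 (12.7 ± 0.622). Rimbp2 was above Erc2 in 8 of 8 mice although the ranges overlapped, Erc2 was above Pclo in 5 of 8, and every mouse had Pclo above Rims2, with no overlap. Unc13b (2.98 ± 0.282) and Erc1 (2.64 ± 0.152) were lowest, 4.27 times under Rims2, and Unc13b was above Erc1 in 8 of 8 mice with overlapping ranges. With the longest coding transcript of GENCODE M21 as length, a choice made after seeing the data, the same 4 genes stood at the top and the same 2 at the bottom, but the order within each tier changed and 1 member kept its rank.

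**Figure D1:**
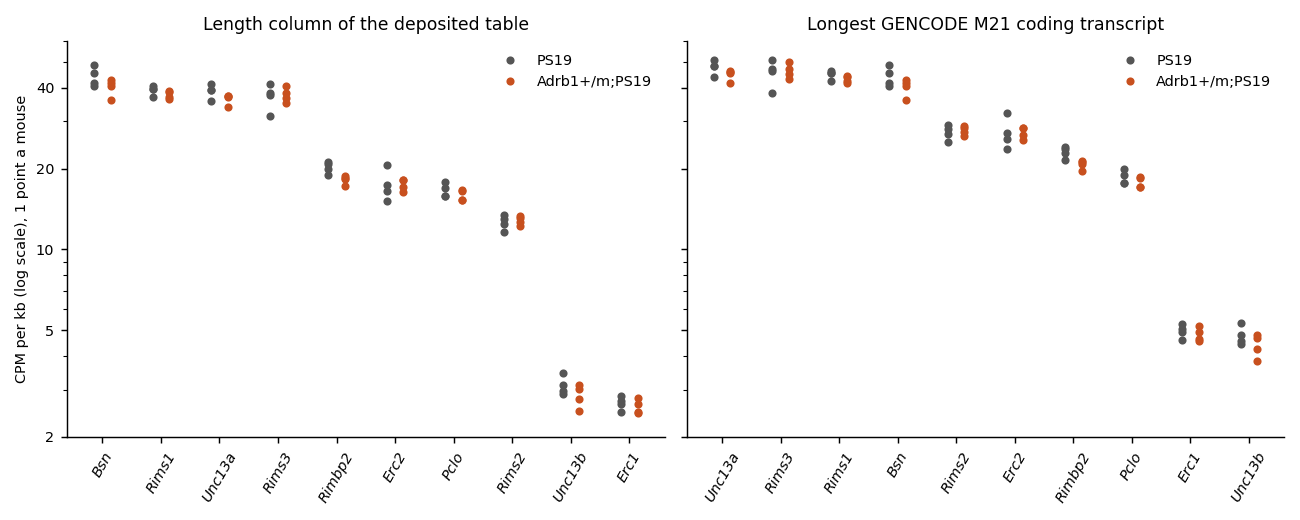
CPM per kb of gene length (log scale) of the 10 members, 1 point a mouse, for both definitions of length, with members sorted by their mean. Bsn, Rims1, Unc13a and Rims3 overlap at the top in both panels, and Unc13b and Erc1 lie apart at the bottom, near 2.98 and 2.64 CPM per kb on the table's length.

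Paralogues were compared within each family on the scale of CPM per kb. Unc13a was 12.7 ± 1.06 times Unc13b (SD over 8 mice), or 10.1 times by longest transcript. Erc2 was 6.64 ± 0.624 times Erc1, or 5.58 times, and Bsn was 2.60 ± 0.173 times Pclo, or 2.33 times. Rims1 was 3.04 ± 0.222 times Rims2 on the table's length and 1.60 times on the longest transcript, so the size of that ratio depended on the length used. Rims1 and Rims3 were near each other, with a ratio of 1.03 on the table's length and 0.963 on the longest transcript, so the direction turned with the length used.

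Mice of a genotype differed little in these genes. The biological coefficient of variation, the spread between mice beyond counting noise as edgeR estimates it, was 6.05% for Rims1, the lowest of the members, and 8.71% for Erc2, the highest. The median over all genes tested was 10.1%. Rimbp2, at 6.27%, stood at percentile 8.18 of all genes, where low percentiles are less variable genes. The members were also well counted, with mean CPM between percentile 69.5 (Erc1) and percentile 99.2 (Bsn), and highly counted genes are estimated with less noise.

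Rimbp2 encodes RIM-binding protein 2 and lies on chromosome 5 (ENSMUSG00000029420, GRCm38 chr5:128757791-128953486, minus strand, 17 exons in its longest transcript). Its level was 150.2, 167.7, 159.0 and 165.7 CPM in PS19 mice 1 to 4, and 145.0, 147.1, 137.2 and 148.6 CPM in mutant mice 1 to 4. Every mutant mouse was below every PS19 mouse, with a gap between 148.6 and 150.2 CPM that was narrower than the spread within either genotype. The means were 160.6 ± 7.90 and 144.5 ± 5.07 CPM (SD, n = 4 each), a log2 fold change of −0.15 (SE 0.05), or −10.0%. It was the member whose difference chose the set.

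Bassoon (Bsn, ENSMUSG00000032589, chr9:108096022-108190384, minus strand) was the most highly counted member. It had 651.1, 779.7, 667.5 and 725.7 CPM in PS19 mice and 662.6, 650.4, 577.3 and 684.4 CPM in mutant mice, with overlap and with mutant mouse 3 below all others. The log2 fold change was −0.13 (SE 0.07), or −8.82%. Its relative piccolo (Pclo, ENSMUSG00000061601, chr5:14514918-14863459, plus strand) had 354.8, 401.9, 381.0 and 354.3 CPM in PS19 mice and 343.1, 373.6, 344.4 and 369.5 CPM in mutant mice. These ranges overlapped more widely, and the log2 fold change of Pclo was −0.06 (SE 0.05).

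Rims1 and Rims2 encode the long RIMs, which carry the Rab3-binding and calcium channel-binding domains, and Rims3 encodes a short RIM that keeps the C-terminal part. Rims1 (ENSMUSG00000041670, chr1:22286251-22805994, minus strand) had 273.3, 292.9, 298.3 and 292.8 CPM in PS19 mice and 285.7, 284.1, 268.0 and 272.7 CPM in mutant mice, a log2 fold change of −0.06 (SE 0.05). Rims2 (ENSMUSG00000037386, chr15:39198261-39684372, plus strand) had 139.3, 129.1, 135.5 and 120.3 CPM against 131.6, 138.1, 135.9 and 126.6 CPM, a log2 fold change of 0.02 (SE 0.06). For both genes the genotypes overlapped. Rims3 (ENSMUSG00000032890, chr4:120854816-120896579, plus strand) had 306.3, 249.9, 331.0 and 301.3 CPM in PS19 mice and 305.2, 325.4, 293.2 and 279.9 CPM in mutant mice. The lowest and the highest Rims3 levels were both in PS19 mice, and the log2 fold change was 0.02 (SE 0.08). Leaving out 1 mouse turned the sign for Rims2 and Rims3, so neither had a direction.

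The Erc genes encode ELKS proteins, of which the Erc2 product is enriched in brain and the Erc1 product is widespread. Erc1 (ENSMUSG00000030172, chr6:119570796-119848167, minus strand) had 43.2, 44.2, 40.3 and 46.4 CPM in PS19 mice and 39.9, 40.5, 43.0 and 45.6 CPM in mutant mice, a log2 fold change of −0.04 (SE 0.07). Erc2 (ENSMUSG00000040640, chr14:27622428-28478537, plus strand) had 147.5, 200.9, 160.7 and 169.7 CPM against 176.8, 159.7, 166.9 and 176.9 CPM. The PS19 mice enclosed all mutant mice in Erc2, and its log2 fold change was 0.0035 (SE 0.08), with a sign that also turned when 1 mouse was left out.

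The Unc13 genes encode Munc13 proteins, which open syntaxin for SNARE assembly and so prime vesicles for fusion. Unc13a (ENSMUSG00000034799, chr8:71624417-71671757, minus strand) had 449.9, 521.1, 495.4 and 496.2 CPM in PS19 mice and 470.7, 465.5, 427.8 and 472.5 CPM in mutant mice. Only PS19 mouse 1 lay within the mutant range, and the log2 fold change was −0.10 (SE 0.05). Unc13a overlaps Colgalt1, a collagen galactosyltransferase gene on the opposite strand, over 495 bases. Colgalt1 had 10.3% as many counts as Unc13a and a log2 fold change of −0.12 (SE 0.09), and the strand setting of the counting is not given in the sources used here. Unc13b (ENSMUSG00000028456, chr4:43058953-43264871, plus strand) had 67.3, 78.8, 65.6 and 70.8 CPM against 56.8, 68.9, 63.0 and 70.9 CPM in mutant mice, with overlap and a log2 fold change of −0.12 (SE 0.08). Of the other members all but Rims3 also overlap an annotated gene, none of which had more than 0.313% of the member's counts. For Rimbp2 these were Gm42875, antisense to it, with 67 counts over all mice, and Gm42871, within an intron, with 2.

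**Figure D2:**
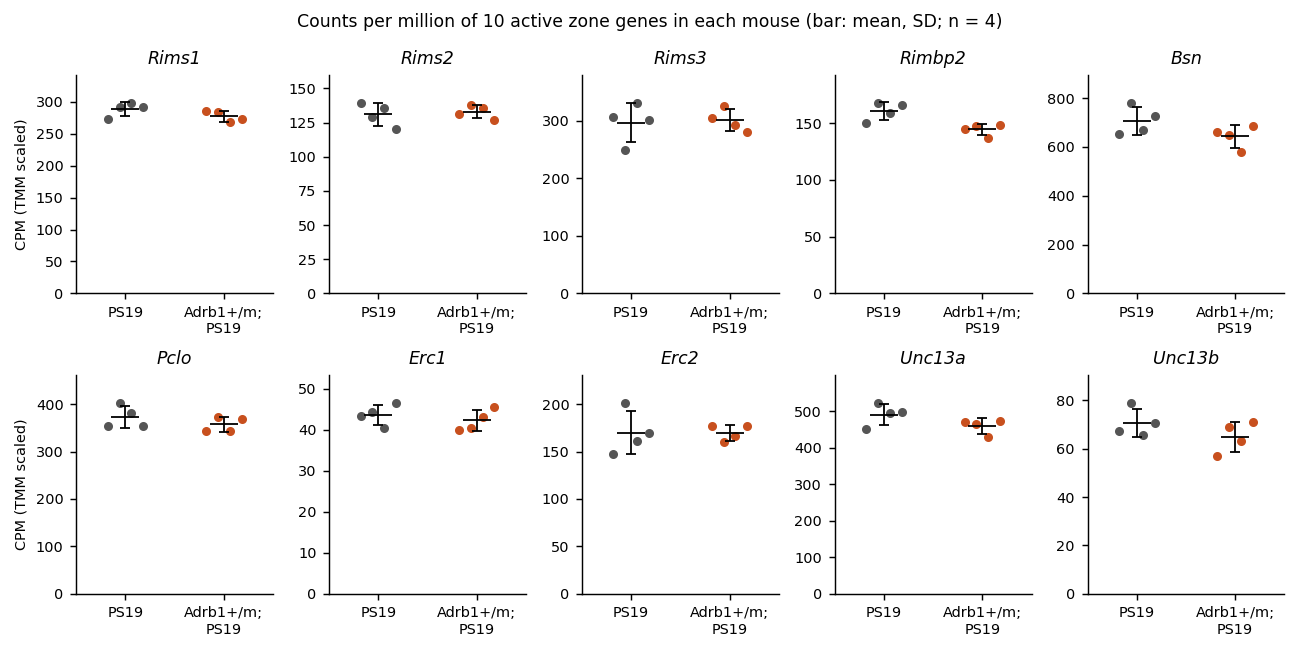
TMM-scaled CPM of each member in each mouse, PS19 in grey and Adrb1+/m;PS19 in orange, with the mean and SD of 4 mice as bars and axes that start at 0. The genotypes are separate for Rimbp2, where the mutant mice reach 148.6 CPM and the PS19 mice start at 150.2 CPM, and overlap for the other 9 genes.

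Fitted on the whole table with edgeR, 481 genes (2.80% of those tested) had an unadjusted p under 0.05. In mutant mice 1.37% were lower and 1.42% were higher. By this count 1 of the 10 members was past the threshold, Rimbp2, lower. Since the set was chosen by that contrast, nothing is read from the member's share. After Benjamini-Hochberg adjustment in edgeR the share of all genes was 0.00%, the smallest adjusted p was 0.9996, and no member passed. Genotypes without overlap in CPM, in either direction, were found in 2.02% of all genes and in 1 of the 10 members, Rimbp2. Of the 10 members 7 had a negative log2 fold change, with a median of −0.06, beside 49.8% of all genes and a median of 0.00046. The chart of log2 fold changes shows how far each member moved when a mouse was left out.

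**Figure D3:**
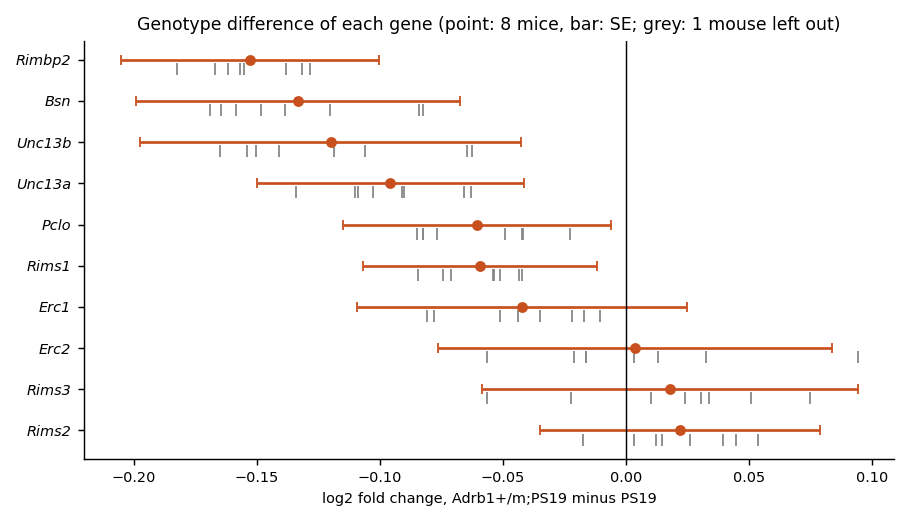
Log2 fold change of each member, Adrb1+/m;PS19 minus PS19, with its SE as a bar and the value with each mouse left out in turn as grey ticks. Rimbp2 stays between −0.18 and −0.13, and the ticks of Erc2, Rims3 and Rims2 lie on both sides of 0.

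The values of Bsn, Unc13a, Unc13b, Pclo and Erc1 depended on single mice. Bsn was −0.13 on the log2 scale with all mice, and −0.082 without PS19 mouse 2 or −0.084 without mutant mouse 3. Unc13a went from −0.10 to −0.063 without mutant mouse 3 or −0.066 without PS19 mouse 2. Unc13b went from −0.12 to −0.065 without PS19 mouse 2 or −0.063 without mutant mouse 1. Pclo went from −0.06 to −0.023 without PS19 mouse 2. Other mice moved these genes the other way. The values farthest from 0 were −0.169 for Bsn and −0.134 for Unc13a, both without PS19 mouse 1. They were −0.165 for Unc13b without mutant mouse 4 and −0.085 for Pclo without PS19 mouse 4. Erc1, at −0.042 with all mice, was −0.011, −0.017 and −0.022 without PS19 mouse 4, mutant mouse 1 and mutant mouse 2, and −0.078 and −0.081 without PS19 mouse 3 and mutant mouse 4. The sign of these 5 genes stayed negative in every such fit, while the number of members past the unadjusted threshold changed. Without PS19 mouse 1, 3 members were past it, Rimbp2, Bsn and Unc13a. Without PS19 mouse 3, or without mutant mouse 4, Rimbp2 and Bsn were past it, 2 members. None passed after adjustment in any of these fits, and Rimbp2 lay between −0.18 and −0.13 on the log2 scale with any mouse left out.

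To set the genotype contrast aside, each mouse was compared with the mean of its own genotype on the log2 CPM scale. Rimbp2, Bsn and Unc13a then varied together. PS19 mouse 1 and mutant mouse 3 were lowest of their genotype for all 3 genes, and PS19 mouse 2 and mutant mouse 4 were highest for all 3. Over the 8 mice Pearson's r of these deviations was 0.95 (Spearman's rho 0.83) for Rimbp2 and Unc13a, 0.92 (rho 0.86) for Rimbp2 and Bsn, and 0.90 (rho 0.95) for Bsn and Unc13a. Without the 2 mice farthest from the median of the first gene, r was 0.64, 0.88 and 0.83. These correlations are descriptions without p-values, and the points share the libraries and their scaling. Among 10437 genes with a mean of at least 10 CPM, Unc13a ranked 16 and Bsn ranked 39 in likeness to Rimbp2, where 0.728% of the genes had r above 0.9, 18.4% had r above 0.5 and 13.2% had r below −0.5.

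The other members had lower or negative r with Rimbp2. Over all 45 pairs of members, 28 had r above 0, with a median of 0.30. Erc2 had r = 0.72 with Rimbp2, with 0.88 in PS19 mice alone and 0.21 in mutant mice alone. Its r was 0.67 without the 2 mice farthest from the median of Rimbp2. Leaving out these 2 mice moved r from 0.59 to 0.30 for Pclo, from 0.57 to 0.81 for Unc13b and from 0.26 to 0.79 for Erc1. Which of these members followed Rimbp2 most closely therefore depended on 2 mice. Rims1 had r = 0.69, which turned to −0.62 without them, so its sign depended on those mice. Rims2 had r = −0.70 with Rimbp2 and ranked 9980 of the 10437 genes, with −0.59 without the 2 mice, and Rims3 went from −0.38 to −0.81. Among all pairs of members the most negative r over 8 mice was that of Rims3 and Erc2, −0.82. PS19 mouse 1 and mutant mouse 3 were above their genotype mean in only 2 of the 10 members, and the other 6 mice in 5 to 8.

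**Figure D4:**
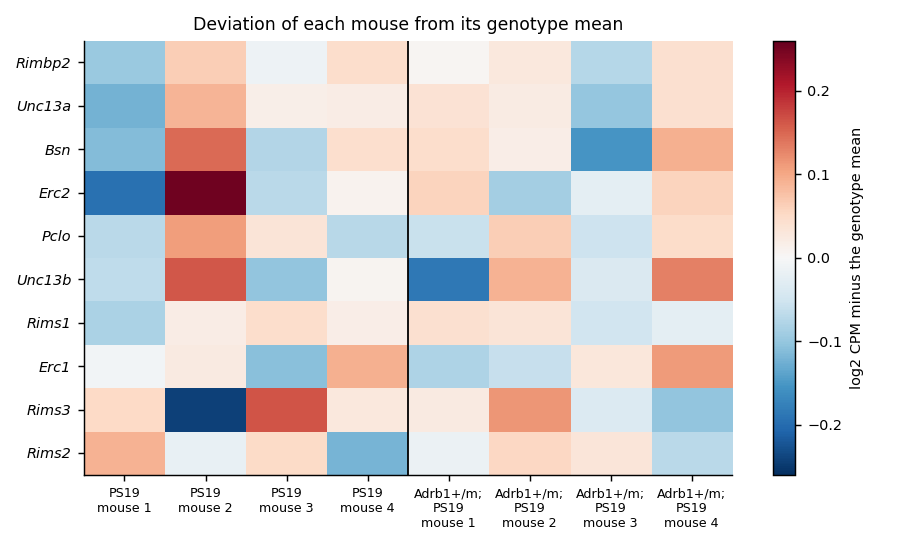
Log2 CPM of each member in each mouse minus the mean of its genotype, blue below and red above, with the vertical line between PS19 and Adrb1+/m;PS19 mice. Rimbp2, Unc13a and Bsn share their lowest mice, PS19 mouse 1 and Adrb1+/m;PS19 mouse 3, while Rims3 and Rims2 show other patterns.

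Other measures of the tissue moved with these deviations. The summed CPM of the 8 basal forebrain cholinergic markers had r = 0.91 with Rimbp2, 0.90 with Bsn, 0.87 with Unc13a and 0.92 with Erc2, but −0.78 with Rims2 and −0.69 with Rims3. The choroid plexus sum had r = 0.74 with Rimbp2, the sum of 7 oligodendrocyte markers had r = −0.77, and the mitochondrial share of counts, 4.58% to 5.31%, had r = −0.77. Ttr, in the choroid plexus list, had 340 CPM in PS19 mouse 2 and 526 CPM in mutant mouse 4. The other mice had 11.5 to 129 CPM of Ttr. PS19 mouse 2 and mutant mouse 4 were also the highest of their genotype for Rimbp2. No r in this paragraph is given without single mice. The sum of 8 pan-neuronal markers had r = 0.96 with Rims1, 0.64 with Rimbp2 and −0.53 with Erc1. Erc1 had r = 0.80 with the microglia marker sum and 0.75 with the astrocyte marker sum, where Rimbp2 had −0.22 and −0.35. Total counts had r = 0.82 with Rims3 and −0.09 with Rimbp2. Within genotypes Rimbp2 was thus higher where the cholinergic markers were higher. Between genotypes all 8 cholinergic markers were higher in mutant mice. The excitatory neuron sum had r = 0.66 with Rimbp2, 0.66 with Unc13a, 0.58 with Bsn and 0.78 with Rims1. Between genotypes 9 of the 10 excitatory markers (median −0.10 on the log2 scale) and 5 of the 8 pan-neuronal markers (median −0.04) were lower in mutant mice. The part of these measures in the members' values was not tested.

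The 5 genes most like Rimbp2 in their deviations were Cntn1 (r = 0.99), a neuronal cell adhesion gene, Cul2 (0.98), a cullin of ubiquitin ligases, Tcaf1 (0.97), Pcdhgc5 (0.97), a clustered protocadherin, and Sort1 (0.97), the sorting receptor sortilin. Their log2 fold changes between genotypes were 0.02, −0.02, −0.02, 0.01 and −0.07, all nearer to 0 than that of Rimbp2. The genes most like the mean of the 10 members were Hectd4 (0.98), Ttbk1 (0.98), a tau tubulin kinase, Sort1 (0.97), Fam19a1 (0.97) and Pcdhgc5 (0.97), out of 10428 genes.

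Correlation between the paralogues, over all 8 mice without regard to genotype, was tested for 4 pairs with a 2-sided exact permutation test. A difference between genotypes therefore enters r. Bsn and Pclo had r = 0.65 (rho 0.43), exact p = 0.0795 and adjusted p = 0.267 over the 4 pairs. Without the 2 mice farthest from the median of Bsn, r was −0.15, so the sign depended on those mice. Leaving out such mice also narrows the range of the first gene. Unc13a and Unc13b had r = 0.57 (rho 0.62), exact p = 0.133 and adjusted p = 0.267, with r = 0.12 without the 2 farthest mice. Erc1 and Erc2 had r = 0.28 (rho 0.33, exact p = 0.524, adjusted p = 0.524), and Rims1 and Rims2 had r = −0.31 (rho −0.31, exact p = 0.452, adjusted p = 0.524). For these pairs r moved away from 0 without the 2 farthest mice, to 0.51 and −0.46. No pair passed the threshold, and the lowest p for Spearman's rho was 0.115 (exact, adjusted p = 0.460). On deviations from the genotype means, r was 0.56 for Bsn and Pclo and 0.41 for Unc13a and Unc13b. It was 0.30 for Erc1 and Erc2 and −0.27 for Rims1 and Rims2. The adjusted p of the same permutation test was then 0.524 for each pair. Without the 2 mice whose deviation of the first gene was farthest from the median, r was 0.29 for Bsn and Pclo and 0.51 for Unc13a and Unc13b. It was 0.17 for Erc1 and Erc2 and 0.61 for Rims1 and Rims2.

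The partners of these proteins were read from 4 lists with 59 genes in all, each of them tested. In mutant mice 1 was past the unadjusted threshold and higher, 0 were lower, and 0 passed after adjustment in edgeR, beside 2.80% of all genes past the unadjusted threshold. The 18 relatives of the scaffold, such as liprins, Rims4 and Cask, showed a median of −0.01 on the log2 scale, and 9 of them were lower. The 10 calcium channel subunits had a median of −0.03 with 6 lower, the 20 genes of Rab3 and the fusion machinery −0.04 with 12 lower, and the 11 trans-synaptic adhesion genes, neurexins and their ligands among them, −0.04 with 7 lower. The gene past the threshold was Unc13c, a Munc13 gene best known from cerebellar granule cells. It had 57.1 to 67.1 CPM in PS19 mice and 86.4, 48.4, 76.6 and 90.7 CPM in mutant mice 1 to 4, a log2 fold change of 0.32 (SE 0.15). Mutant mice 1, 3 and 4 were above all PS19 mice and mutant mouse 2 was below them all, so the genotypes overlapped. Gabra6, in the cerebellum list, had at most 0.19 CPM in PS19 and 0.06 CPM in mutant mice. Cbln1 and Calb1 of that list had log2 fold changes of −0.18 (SE 0.23) and −0.0047 (SE 0.08). The part of such tissue in Unc13c was not tested.

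**Figure D5:**
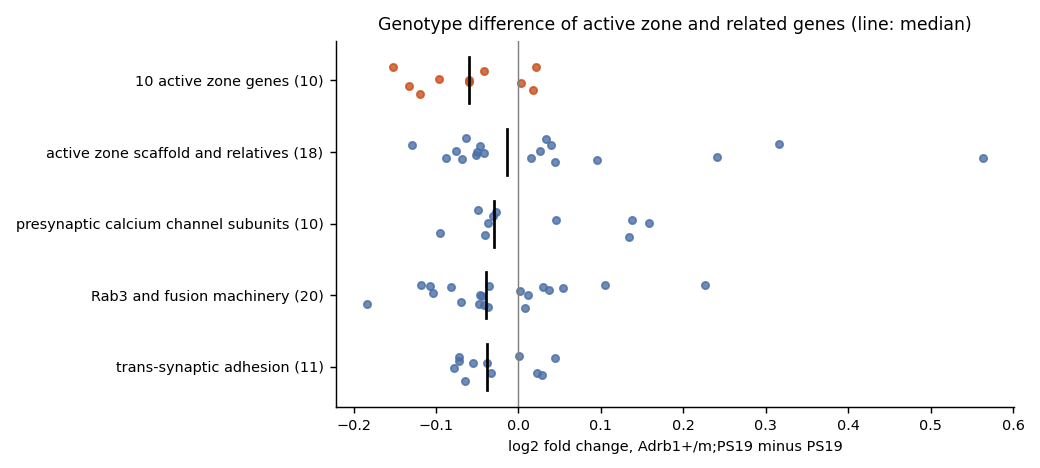
Log2 fold change, Adrb1+/m;PS19 minus PS19, of the 10 members and of the 4 lists of partner genes, 1 point a gene, with the median of each list as a black line. The medians lie between −0.06 and −0.01, and the values of the lists fall on both sides of 0.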

How the data were processed

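RNA-seq was carried out on the cortex of 4 PS19 and 4 Adrb1+/m;PS19 mice, 1 library per mouse. The authors aligned reads to GRCm38 with HISAT2 2.0.5, per the submitters' processing notes, and deposited counts per Ensembl gene from featureCounts 1.5.0-p3 without normalization. Its strand and multiple-mapping settings are not given in the sources used here. The table's gene length column served only to put levels on a per-kb scale.

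Low counts were removed with filterByExpr of edgeR 4.0.16, and counts were scaled with TMM factors to CPM. The genotypes were compared in R 4.3.3 by edgeR's quasi-likelihood test, 2-sided and without covariates, and p-values were adjusted by Benjamini-Hochberg over the whole table. SE is the log2 fold change divided by the square root of F. Correlations used log2 CPM with a prior count of 2 and exact permutation tests over all pairings. The study's methods state that controls were littermates, but no source used here says which mice shared a litter. Litter was therefore in no model, and the p-values treat the mice as independent, which could not be checked. Totals of 14653222 to 21223754 counts per mouse set the depth.

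The members and lists were chosen with earlier results of these data known. Named genes were all members, genes of the partner lists with an unadjusted p under 0.05, the 5 genes most like Rimbp2 and the 5 most like the members' mean, and genes overlapping a member. Colgalt1 and the 2 genes overlapping Rimbp2 stand for the last. Alternatives were DESeq2 1.42.0, limma-voom (limma 3.58.1), DESeq2's size factors, 2 other count filters, protein-coding genes alone and leaving out each mouse.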

Additional observations from a re-analysis of the deposited data

Results flagged for a closer look

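Unc13a in mutant mouse 3, at 427.8 CPM, stood apart from the other 3 mutant mice, which lay between 465.5 and 472.5 CPM. The gap to the nearest mouse was 0.843 of the whole range of the group, above Dixon's 95% critical value for 4 samples. Among 20 groups looked at, 10 genes in 2 genotypes, this was the only one, and chance alone passes about 1 in 20. The same mouse was also the lowest of its genotype for Rimbp2 and Bsn. Without it, the log2 fold change of Unc13a was −0.063, and without PS19 mouse 2 instead it was −0.066.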

How the results depend on the processing

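With all genes of at least 1 count in the fit, 1366 genes and 2 members, Rimbp2 and Bsn, were past the unadjusted threshold, and 66 genes passed after adjustment, against 481 genes, 1 member and 0 after adjustment. The other 5 alternatives gave 393 to 555 genes and Rimbp2 alone, DESeq2 the highest number, and 0 genes after adjustment. DESeq2's Wald test covered 33611 genes, against 33614 in the edgeR fit of all genes with at least 1 count. Its smallest adjusted p was 0.110, so the 66 genes were not found by DESeq2. Leaving out 1 mouse gave 431 to 674 genes and 1 to 3 members. No member passed after adjustment under any alternative. The members' median log2 fold change lay between −0.08 and −0.05 with a mouse left out. The sign turned for Rims2 (−0.018 to 0.053) without PS19 mouse 4, for Rims3 (−0.056 to 0.074) without PS19 mouse 2 or mutant mouse 2, and for Erc2 (−0.057 to 0.094) without PS19 mouse 1, PS19 mouse 3, mutant mouse 1 or mutant mouse 4. The cause was not tested. The correlation of Bsn and Pclo was −0.15 without the 2 mice farthest from the median, against 0.32 to 0.80 with 1 mouse left out. Of the 9 neighbours in the order of level per kb, 5 held in every mouse, 7 on CPM without length, 5 to 6 with a mouse left out, and 4 with the longest transcript. No paired analysis was possible because no label says which PS19 and mutant mice were littermates. Lists of a few genes at low levels, such as the cholinergic markers, rest on few counts, whereas every member had at least 640 counts in each mouse.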
